A study of Drosophila melanogaster with 4 samples.

Results

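The mRNA differences between uracil-treated and untreated Drosophila melanogaster midguts at 16 h are described here gene by gene. Members were the genes at least 2-fold apart, that is with a log2 ratio of (uracil + 1) over (untreated + 1) at or beyond 1 in either direction, among genes that averaged 10 normalized counts or more over the 16 h libraries. The rule gave 457 members out of 6675 genes past that filter and 13585 gene IDs in all. Of the genes past the filter, 396 (5.93%) were higher and 61 (0.914%) were lower with uracil, 6.85% in either direction.

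Poly(A) RNA was sequenced from the midguts of uracil-treated flies at 16 h and of control flies with no treatment at 16 h, and from the matching pair at 2 h, with 1 library for each of the 4 groups. The strain, sex, age, uracil dose, feeding conditions and number of guts are not stated in the labels. Reads assigned to genes came to 8841796 in the uracil 16 h library and 16588143 in the untreated 16 h library, and to 8990316 and 8500378 in the uracil and untreated 2 h libraries. Levels are the authors' normalized counts, in which 1 read was worth between 0.0584 and 0.127. Because no library was repeated, no spread between replicates exists, no p-value is given, and treatment cannot be told apart from any other difference between the libraries. The 95% interval after a ratio is an exact Clopper-Pearson interval from the reads and covers counting error only.

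Some bacteria of the gut release uracil, a nucleobase. In the fly intestine it is known to activate the oxidase Duox, which makes reactive oxygen species at the epithelial surface, through signalling that includes phospholipase C and calcium. The midgut epithelium consists of absorptive and enzyme-secreting enterocytes, hormone-producing enteroendocrine cells, acid-secreting copper cells and stem cells, surrounded by visceral muscle. The Malpighian tubules, the renal organs, join the gut at the boundary of midgut and hindgut.

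All 11 enterocyte markers matched in the table passed the filter, and their summed level was 13988 normalized counts in the uracil 16 h library, against 12394 in the untreated 16 h library. At 2 h the same sum was 19049 with uracil and 20839 without. Of the 11, 2 were members (18.2% higher, against 5.93% of all genes), cad and the alkaline phosphatase gene Alp4. Each also counts in a list given further on, cad among gut transcription factors and Alp4 among alkaline phosphatases. Both were highest in the uracil 16 h library, a rank that the rule for higher genes in part fixes, and lowest in the uracil 2 h library. Alp4 was at 28.8 with uracil and 79.3 without at 2 h. The Malpighian tubule markers Uro and NaPi-T, given further on, had the same order, and the part of tubule tissue in the Alp4 values was not tested. The 8 stem cell and enteroblast markers past the filter held no member, with log2 ratios between -0.28 and -0.04. The labelled tissue was thus represented by its absorptive cells in every library, beside the markers of other tissues given further on.

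The difference was lopsided. Of the 457 members, 86.7% were higher with uracil (exact 95% interval 83.2% to 89.6%, over genes, which are not replicates). The median log2 ratio over all 6675 genes was -0.08, with quartiles of -0.32 and 0.23, so that the bulk of genes lay slightly below 0 while the tail lay above it. The 95th percentile stood at 1.11 and the 5th at -0.69. On the higher side 88 genes lay at or beyond 2 on the log2 scale and 30 at or beyond 3, up to 7.29. On the lower side these counts were 5 and 2, down to -3.82. The counting interval of the ratio lay wholly beyond 2-fold for 315 of the higher genes and 36 of the lower ones.

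**Figure D1:**
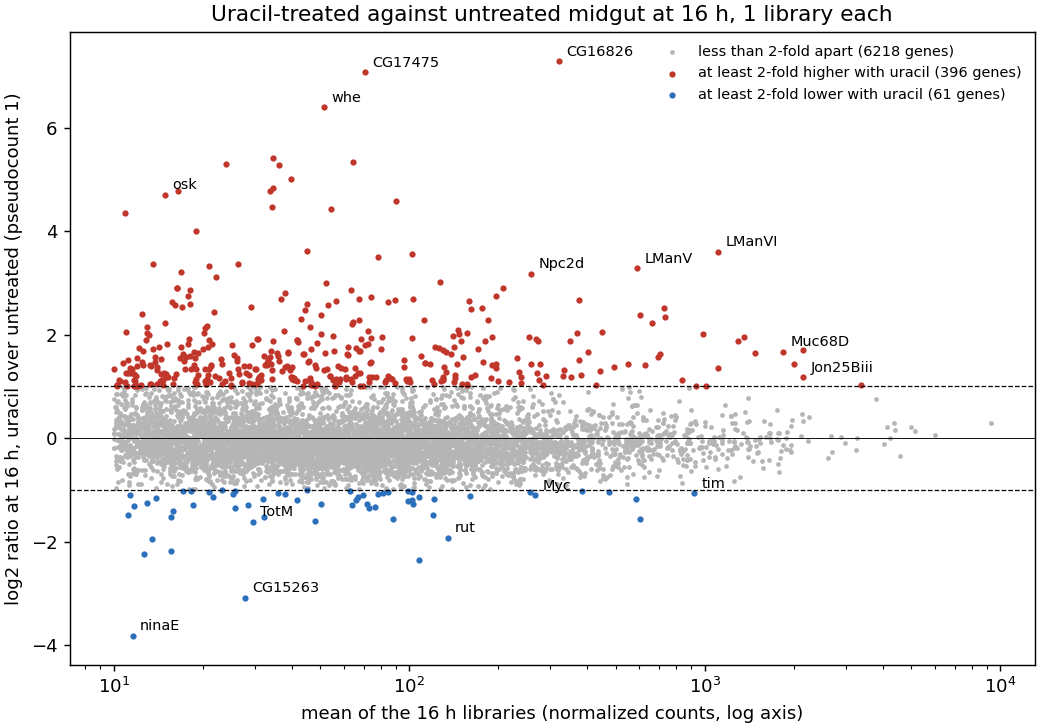
Each point is 1 of the 6675 genes past the filter, with its mean level at 16 h on a log axis and its log2 ratio of uracil over untreated at 16 h. The 396 red points lie at or above 1 and reach 7.29, and the 61 blue points lie at or below -1 and reach -3.82.

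Genes close to the threshold show how little separates a member from a non-member. Just inside on the higher side were CG9917, CG13607 and CG18493, with log2 ratios of 1.0004, 1.001 and 1.003, and just outside were the water channel gene Drip (0.998), hoe2 (0.999) and the peptidase gene Acer (0.999). On the lower side CG14721 (-1.002), Bicra (-1.004) and CG42806 (-1.02) were inside, and stl (-0.99), the collagen gene Col4a1 (-0.99) and CG6296 (-0.98) were outside.

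The highest ratio belonged to CG16826 (FBgn0032505, chromosome 2L, 13347773 to 13349020, Ensembl release 115, BDGP6.54, as for all positions here). It was at 639 normalized counts in the uracil 16 h library, against 3.10 in the untreated 16 h library, and at 303 with uracil and 1.01 without at 2 h. Both uracil libraries were high and both untreated libraries low. The same arrangement held for the X-linked neighbours whe (103 with uracil at 16 h, 0.234 without, 35.9 with uracil at 2 h, 0.254 without) and lcs (174, 6.37, 98.9 and 1.52 in the same order). CG33109 followed it too, at 47.7 with uracil against 0.234 without at 16 h, and at 12.6 with uracil against 0.127 without at 2 h. No function is annotated for CG16826, whe, lcs or CG33109 in the files used here.

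A second set of the highest ratios belonged to genes that were high in the uracil 16 h library alone. CG17475 was at 142 normalized counts in the uracil 16 h library, against 0.0584 in the untreated 16 h library, and at 0.118 with uracil and 10.4 without at 2 h. Its 16 h ratio rested on 1 untreated read and was 2428 (435 to 95986). CG30047 was at 68.6 with uracil and 0.643 without at 16 h, and at 0.709 and 4.44 at 2 h. CG30043 was at 105 with uracil and 3.91 without at 16 h, and at 1.42 and 8.50 at 2 h. In each of CG17475, CG30047 and CG30043 the uracil library was above the untreated one at 16 h and below it at 2 h.

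**Figure D2:**
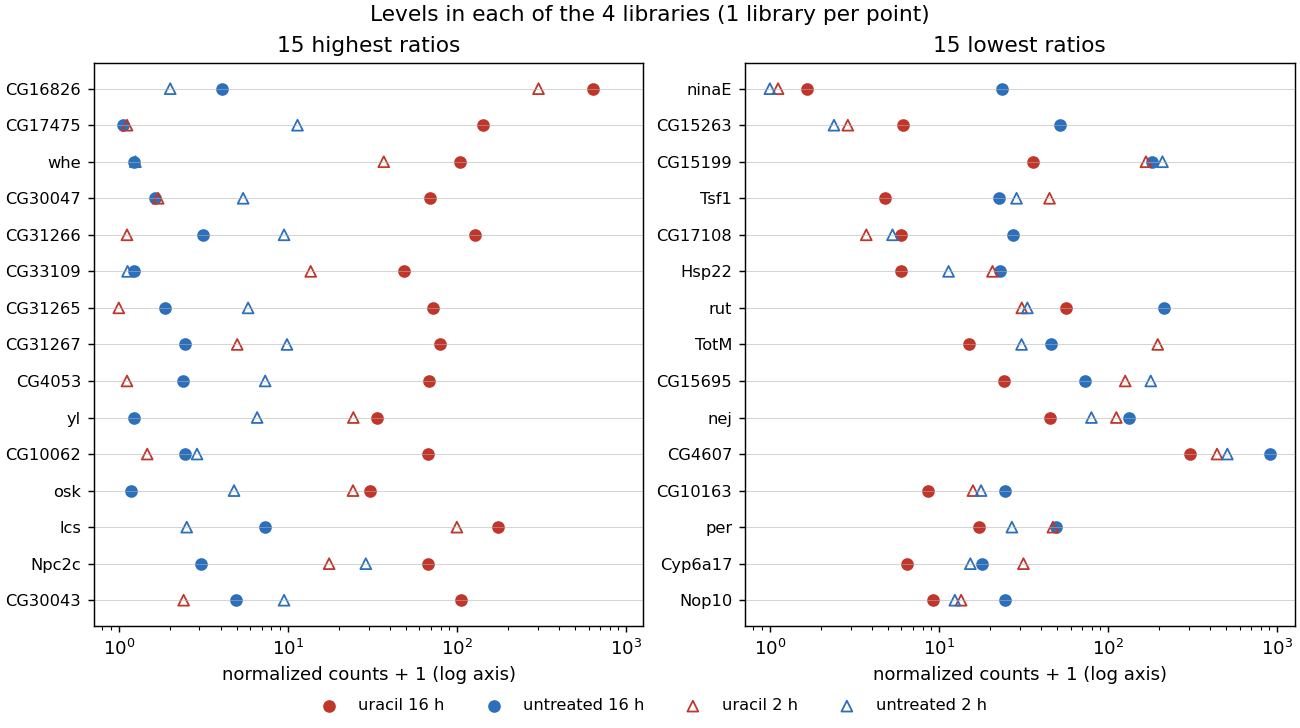
Levels of the 15 named genes of highest ratio (left) and the 15 of lowest ratio (right) at 16 h, as normalized counts plus 1 on a log axis, 1 point per library. Filled points are the 16 h libraries and open triangles the 2 h libraries; CG16826 is at 639 in the uracil 16 h library and 3.10 in the untreated one, and ninaE at 0.665 and 22.5.

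Several members were neighbours on the chromosome. Taking runs of at least 3 members of the same direction with at most 1 other coding gene between neighbours, 11 runs with 38 genes were found on the higher side and 0 on the lower side. The steepest run was CG31265, CG17475, CG4053, CG31266 and CG31267 on chromosome 3R, 17128212 to 17135283, whose 5 genes lay between 4.84 and 7.08 on the log2 scale. All 5 carry a serine protease series name among their RefSeq synonyms. CG31265 was at 71.5 normalized counts in the uracil 16 h library and 0.876 in the untreated one, CG31266 at 127 and 2.16, CG31267 at 78.4 and 1.46, and CG4053 at 67.6 and 1.402. CG5255, a nearby gene with such a synonym, was on the lower side, at 6.32 normalized counts with uracil and 17.1 without at 16 h.

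The second run of 5 genes, CG33306, CG8997, CG7916, CG7953 and CG7968, lay on chromosome 2L between 13842888 and 13850329. CG8997 was at 1577 normalized counts in the uracil 16 h library, against 389 in the untreated one, CG7916 at 1235 against 215, and CG7953 at 1229 against 242. The whole run overlaps the longer gene CenG1A in the annotation, and since the strand setting of the counting is unknown, reads of overlapping genes may be shared. Other runs held lysosomal alpha-mannosidase genes (LManIII, LManV, LManVI), chitinase-family genes (Cht8, Cht4, Cht9), sterol-binding protein genes (Npc2c and Npc2d, beside Fancl), sodium-coupled transporter genes (salt and Smvt, with CG2187) and Plc21C with CG11912 and CG11911 inside it. The remaining runs were CG17111, CG6726, CG17110 and CG6733, then CG17752, CG16727 and CG6231, then CG8562, CG8560 and CG42458, and finally CG10051, CG9416 and CG10062.

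Genes with a serine protease series name formed the largest listed family among the members. Whether each of them is secreted or digestive was not examined. By RefSeq synonym, 68 serine protease genes passed the filter. Of these, 23 passed the 2-fold rule on the higher side (33.8%, against 5.93% of all genes) and 1, CG5255, on the lower side. Their median log2 ratio was 0.36, against -0.08 for all genes. This list was added after values were seen, so its share supports no result. Within it stood the Jonah proteases, abundant gut chymotrypsin-like enzymes, with 7 of 15 higher and 0 lower (median 0.47), and the trypsins, with 3 of 10 higher and 0 lower (median 0.27). Jon66Ci was at 118 normalized counts in the uracil 16 h library, against 17.5 in the untreated one, and at 41.7 and 180 in the uracil and untreated libraries at 2 h. Jon99Fi was at 2243 with uracil and 716 without at 16 h, and at 739 and 1384 at 2 h. For both genes an untreated library, that of 2 h, was the one nearest to or above the uracil 16 h level.

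Summed over the 16 Jonah genes, the level was 23497 normalized counts in the uracil 16 h library, against 17337 in the untreated 16 h library, and 33986 with uracil and 39446 without at 2 h. The untreated 16 h library therefore held the lowest Jonah sum of the 4, and the uracil 16 h library lay between it and both 2 h libraries. With the mean of both untreated libraries in place of the untreated 16 h library, an alternative chosen after seeing the data, the Jonah median was -0.20. The median of all 68 serine protease genes was 0.09 and that of the trypsins 0.03 under that alternative.

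Among the trypsins, zetaTry was at 156 normalized counts in the uracil 16 h library, against 23.5 in the untreated one, and at 0.118 with uracil and 18.5 without at 2 h. The gene iotaTry was at 146 with uracil and 22.7 without at 16 h, and at 8.51 and 19.4 at 2 h. The gene lambdaTry was at 552 with uracil and 149 without at 16 h, and at 106 and 132 at 2 h. Unlike Jon66Ci, these 3 were higher in the uracil 16 h library than in any other, a rank that the rule for higher genes in part fixes. Ser8, another serine protease gene, was at 189 with uracil and 15.1 without at 16 h, and at 5.91 and 8.12 at 2 h.

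Enzymes that trim sugars from glycoproteins or digest starch also held members, beside 5.93% higher among all genes past the filter. Of 10 alpha-mannosidase genes past the filter 5 were higher and 0 lower, with a median of 1.07. Their summed level was 6275 normalized counts in the uracil 16 h library, against 1509 in the untreated 16 h library, and 1433 with uracil and 2077 without at 2 h. LManVI was at 2054 with uracil and 168 without at 16 h, and at 30.8 and 345 at 2 h. Its neighbour LManV was at 1072 with uracil and 109 without at 16 h, and at 16.5 and 78.4 at 2 h. The mannosidase median was 0.99 with the mean of both untreated libraries. Maltases and amylases had 2 of 12 higher and 0 lower with a median of 0.00, and the members were Mal-A3 (342 with uracil, 50.1 without) and the amylase-related gene Amyrel (32.6 and 3.62). The summed level of that list was lower with uracil, at 12491 against 14762 without.

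Genes of the peritrophic matrix, the chitin and mucin sheet that lines the midgut, were represented by 2 mucins of 10 and by 3 of 9 chitinase-family genes. Muc68D was at 2808 normalized counts in the uracil 16 h library, against 881 in the untreated one, and at 641 with uracil and 737 without at 2 h. Mur18B was at 805 with uracil and 298 without at 16 h, and at 153 and 251 at 2 h. The chitinase-family genes Cht9 (75.7 with uracil, 16.4 without), Cht8 (94.2 and 30.3) and Cht4 (29.7 and 11.2) were the members of a list with a median of 0.81. Lysozymes, which cut bacterial cell walls, had 1 of 5 higher, LysX (39.0 and 13.1), and a median of -0.13.

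Nutrient uptake was the next theme. In the list of sterol, lipid and carotenoid uptake 7 of 26 genes were higher (26.9%, against 5.93% of all genes) and 0 lower, with a median of 0.34. Npc2d, which encodes a secreted sterol-binding protein, was at 467 normalized counts in the uracil 16 h library, against 50.7 in the untreated one, and at 16.3 with uracil and 44.0 without at 2 h. Its neighbour Npc2c was at 66.7 with uracil and 2.04 without at 16 h, and at 16.5 and 27.9 at 2 h. Npc1b, the gut sterol uptake gene, was higher with uracil at both times, at 277 against 103 at 16 h and at 331 against 92.3 at 2 h. The other members were the carotenoid receptor genes santa-maria (88.5 with uracil, 21.8 without) and ninaD (51.1 and 16.5), the acyl-CoA-binding protein gene Acbp3 (66.2 and 17.6) and the CD36-family gene Snmp2 (17.0 and 6.07).

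Of 4 sodium-coupled transporter genes of the SLC5 family past the filter, 3 were higher, with a median of 1.25. They were kumpel (346 normalized counts with uracil, 118 without), Smvt (334 and 138) and salt (234 and 100). At 2 h all were lower with uracil, at 37.0 and 88.0 for kumpel, 19.0 and 85.1 for Smvt, and 33.2 and 64.2 for salt. The gene salt is also in the list of Malpighian tubule markers given further on, so it counts in both lists. Amino acid and peptide transporters had 1 of 12 higher (8.33%, against 5.93% of all genes), the nutrient amino acid transporter gene NAAT1. NAAT1 was at 145 with uracil and 11.9 without at 16 h, and at 3.31 and 11.0 at 2 h. In the metal list 3 of 29 were higher (10.3%, against 5.93% of all genes) and 1 lower, with a median of 0.13. The zinc transporter gene Zip89B was at 180 with uracil and 27.05 without at 16 h, the metallothionein gene MtnA at 555 and 194, and the transferrin gene Tsf1 at 3.77 and 21.6. Alkaline phosphatases, brush-border enzymes in part, had 3 of 5 higher (60%) with a median of 1.20. That list was added after values were seen, so its share supports no result. The 3 were Alp5 (404 with uracil, 103 without), Alp4 (172 and 62.6) and Alp6 (405 and 176). The summed level of all 10 matched phosphatases was close, at 4065 with uracil and 3884 without.

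**Figure D3:**
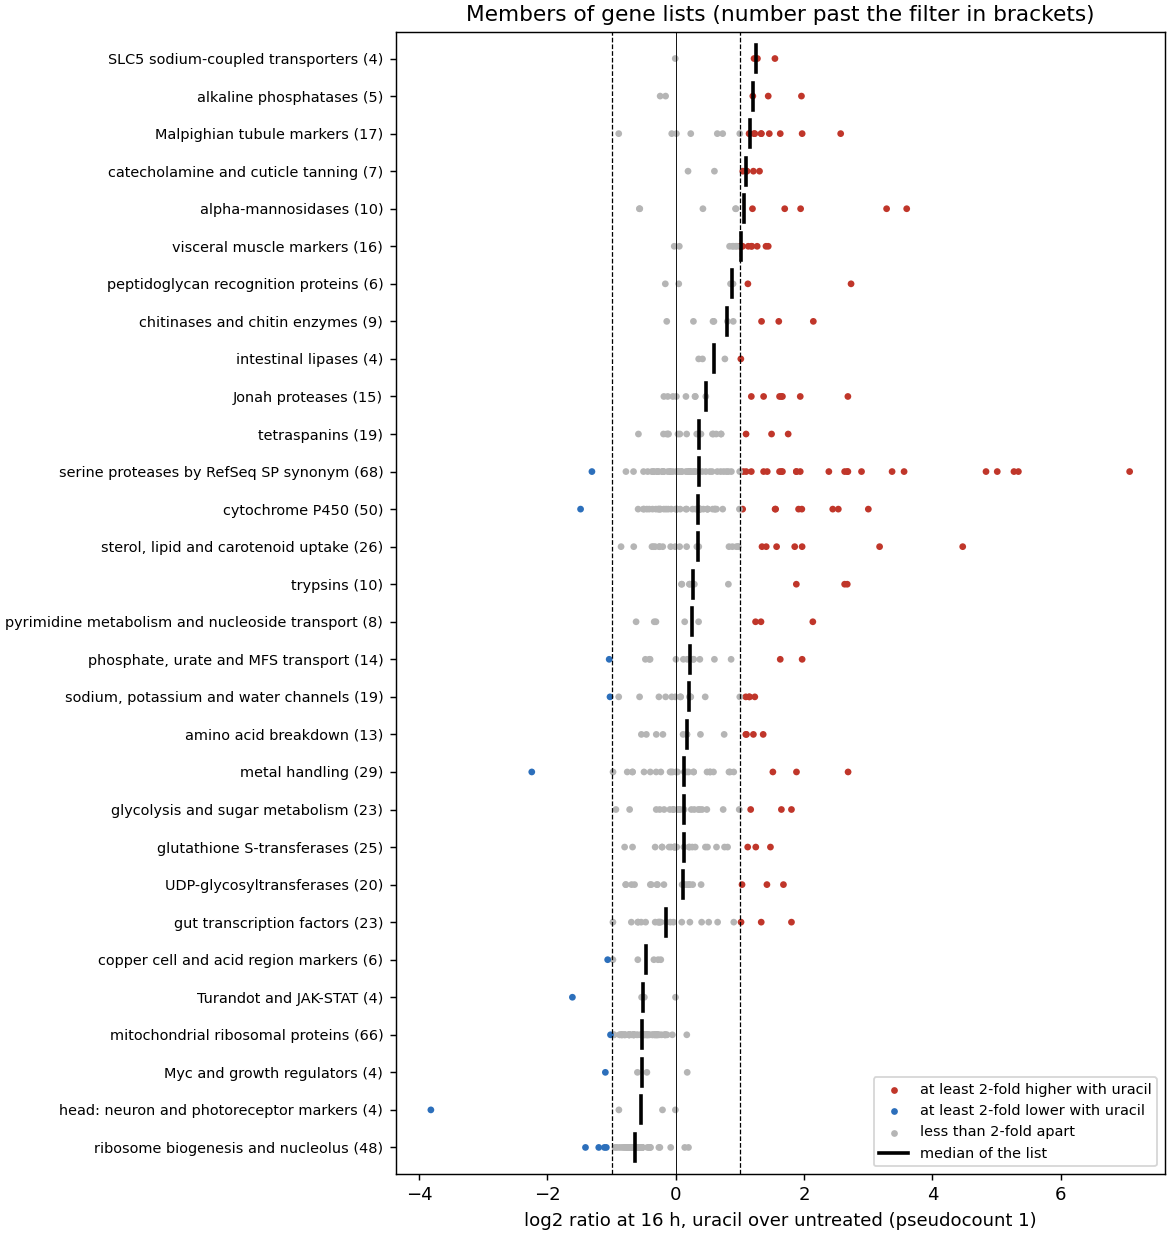
Log2 ratios of uracil over untreated at 16 h for members of the lists with at least 4 genes past the filter and either at least 3 genes 2-fold apart or a median at or beyond 0.4 in size. Black bars mark list medians, which run from 1.25 for SLC5 transporters to -0.63 for ribosome biogenesis; red and blue points lie at or beyond 1 and -1.

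Detoxification families held members in a minority of genes, though in larger shares than all genes past the filter. Higher genes made up 16% of cytochrome P450, 15% of UDP-glycosyltransferase and 12% of glutathione S-transferase genes, against 5.93% of all genes. Of 50 cytochrome P450 genes 8 were higher and 1 lower (median 0.35), of 20 UDP-glycosyltransferase genes 3 were higher and 0 lower (median 0.11), and of 25 glutathione S-transferase genes 3 were higher and 0 lower (median 0.13). Cyp4d1 was at 93.6 normalized counts in the uracil 16 h library, against 10.8 in the untreated one, and at 0.709 with uracil and 6.59 without at 2 h. Cyp4g1, which makes cuticular hydrocarbons, was at 303 with uracil and 76.9 without at 16 h. The P450 gene on the lower side, Cyp6a17, was at 5.43 with uracil and 17.0 without at 16 h, and at 30.6 and 14.3 at 2 h.

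Immune and stress genes gave members that were few in number, beside shares of 5.93% higher and 0.914% lower among all genes past the filter. Peptidoglycan recognition proteins had 2 of 6 higher and 0 lower, both amidases that degrade bacterial peptidoglycan. PGRP-SC1b was at 130 normalized counts in the uracil 16 h library, against 18.6 in the untreated one, and at 33.0 with uracil and 75.7 without at 2 h. PGRP-SC2 was at 376 with uracil and 172 without at 16 h, and at 518 and 693 at 2 h, so that the untreated 16 h library was the lowest of the 4. Its log2 ratio of 1.12 was -0.20 with the mean of both untreated libraries. The IMD pathway had 1 of 16 higher (6.25%), near the share of all genes. This was the feedback inhibitor gene pirk (189 with uracil, 77.5 without), which stood at 244 with uracil and 243 without at 2 h.

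The list of Duox and its activating signalling had 1 of 14 higher (7.14%, against 5.93% of all genes), Plc21C, and 0 lower, with a median of -0.12. Plc21C, a phospholipase C gene, was at 62.7 normalized counts in the uracil 16 h library and 30.3 in the untreated one. CG11911 (2037 with uracil, 552 without) and CG11912 (366 and 48.2) lie within its bounds, and the reads of the 3 genes could not be told apart with certainty. The Duox maturation factor gene mol, at 6.43 with uracil and 1.75 without, stayed under the filter. Duox itself is not analysed here, since no ID carried that symbol, and the list named for it holds other genes only. No member was found among 5 Toll, 10 EGFR, 10 Hedgehog and 11 insulin and TOR genes of the lists past the filter. Since 6.85% of all genes past the filter were members, lists of this size can hold none. The Toll list did not include the receptor gene Toll-9, which was a member, at 76 normalized counts with uracil and 12.9 without at 16 h, and at 12.5 and 19.8 at 2 h. Of 17 antioxidant genes 1 was higher (5.88%, near the share of all genes), the germline thioredoxin gene dhd.

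Among pyrimidine genes, 3 of 8 past the filter were higher (37.5%, against 5.93% of all genes) and 0 lower. The nucleoside transporter gene Ent3 was at 33.7 normalized counts in the uracil 16 h library, against 6.89 in the untreated one, and at 14.7 with uracil and 17.6 without at 2 h. The pyrimidine breakdown genes pyd3 (43.9 with uracil, 16.9 without) and CRMP (20.7 and 8.18) encode successive steps of uracil degradation. The list median was 0.25.

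Catecholamine and cuticle tanning genes, which act in the ectodermal lining of the body and in wound sites, had 5 of 7 higher and a median of 1.10. That was 71.4%, against 5.93% of all genes, but the list was added after values were seen, so its share supports no result. The tyrosine hydroxylase gene ple was at 75.5 normalized counts in the uracil 16 h library, against 32.1 in the untreated one, and at 11.8 with uracil and 6.47 without at 2 h. The others were the dopa decarboxylase gene Ddc (19.96 with uracil, 8.76 without), Mco4 (53.5 and 21.03), yellow-d (28.3 and 12.6) and the transglutaminase gene Tg (27.95 and 13.03). The summed level of the list was 426 with uracil and 241 without at 16 h, and 140 and 147 at 2 h. A cuticle protein gene, Cpr49Ae, was at 67.5 with uracil and 23.5 without at 16 h, and at 0.236 and 0.254 at 2 h. Likewise ninaD was at 0.236 with uracil and 0.254 without at 2 h, where each value is 2 reads. The genes ple, Ddc, yellow-d, Tg, Cpr49Ae and ninaD were higher in both 16 h libraries than in either 2 h library, while Mco4, at 25.4 with uracil and 27.5 without at 2 h, was not.

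Markers of tissues attached to the midgut stood higher with uracil in the same pair. Malpighian tubule markers had 10 of 17 higher and 0 lower, with a median of 1.15 and log2 ratios from -0.89 to 2.57. Their summed level was 1758 normalized counts in the uracil 16 h library, against 1064 in the untreated 16 h library, and 1082 with uracil and 1215 without at 2 h, and no marker was at 0 in either 16 h library. The urate oxidase gene Uro was at 210 with uracil and 67.2 without at 16 h, and at 14.2 and 82.6 at 2 h. The phosphate transporter gene NaPi-T was at 224 with uracil and 56.4 without at 16 h, and at 15.6 and 49.0 at 2 h. For both genes the uracil library was the highest of the 4 at 16 h and the lowest of the 4 at 2 h. The 16 h rank is in part fixed by the rule, and 369 of the 396 higher genes had it. In bulk tissue, more cells of a type and more RNA per cell cannot be told apart. The transporter, alkaline phosphatase and P450 genes above stood higher in the same library as these markers, and the part of tubule tissue in those values was not tested.

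Visceral muscle markers had 9 of 16 higher and 0 lower, with a median of 1.01. Their summed level was 4673 normalized counts in the uracil 16 h library, against 2735 in the untreated 16 h library, and 3754 with uracil and 2568 without at 2 h. The myosin light chain gene Mlc2 was at 379 with uracil and 139 without at 16 h, and at 293 and 212 at 2 h. The projectin gene bt was at 382 with uracil and 158 without at 16 h, and at 156 and 81.3 at 2 h, and the titin-like gene sls at 333 and 147, then 147 and 63.9. Muscle markers thus stood higher with uracil at both times, unlike tubule markers.

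Oocyte mRNAs were among the steepest members. Of 19 matched female germline and eggshell markers, 2 passed the filter and both were higher. Both reached the minimum mean through the uracil 16 h library alone, so passing the filter already fixed their direction. The share of higher genes in this list therefore carries no information of its own. The yolk protein receptor gene yl was at 32.7 normalized counts in the uracil 16 h library, against 0.234 in the untreated one, and at 23.4 with uracil and 5.58 without at 2 h. The posterior determinant osk was at 29.6 with uracil and 0.175 without at 16 h, a ratio of 169 (57.2 to 825) that rested on 3 untreated reads, and at 23.3 and 3.80 at 2 h. The summed level of the list was 91.3 with uracil and 8.53 without at 16 h, and 72.7 and 26.4 at 2 h. Members at 0 numbered 5 in the uracil 16 h library and 9 in the untreated one, and the vitelline membrane genes Vm26Aa, Vm26Ac, Vm32E and Vm34Ca were at 0 in both. Alongside, dhd was at 36.5 with uracil and 1.34 without at 16 h, and at 114 and 23.7 at 2 h. The mitotic cyclin genes CycB (38.9 with uracil, 2.98 without) and CycA (19.9 and 6.78) were the 2 members among 19 cell cycle genes past the filter. That was 10.5%, against 5.93% higher among all genes. CycB and CycA too reached the minimum mean through the uracil 16 h library alone. The list of cell cycle genes had a median of -0.17, and the part of germline tissue in the cyclin values was not tested.

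Gut hormones and regulators added single members. Of 12 enteroendocrine genes 2 were higher (16.7%, against 5.93% of all genes), and the list median was 0.05. They were Dh31 (19.6 normalized counts with uracil, 5.43 without) and CCHa1 (17.9 and 6.13). Dh31 and CCHa1 reached the minimum mean of 10 through the uracil 16 h library alone, so passing the filter already fixed their direction. A further matched hormone gene shares all its counts with another ID and was left out of the list. Of 23 gut transcription factor genes 3 were higher, led by the caudal homeobox gene cad, a posterior gut regulator, at 111 with uracil and 31.0 without at 16 h, and at 10.04 and 27.1 at 2 h. Outside the lists, and chosen after their values were seen, the zinc finger gene sens-2 was at 50.2 with uracil and 7.83 without at 16 h. The ecdysone-activating P450 gene shd was at 39.7 and 10.7, the ceramidase gene CDase at 285 and 76.2, the FGF receptor gene htl at 50.02 and 17.9, and the alcohol dehydrogenase gene Adh at 478 and 190.

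The lower side was small and held no run of neighbours. Its lowest member was ninaE, which encodes the major rhodopsin of photoreceptors, at 0.665 normalized counts in the uracil 16 h library, against 22.5 in the untreated one, and at 0.118 with uracil and 0 without at 2 h. Below the filter, the photoreceptor arrestin genes Arr2 (0.111 with uracil, 12.97 without) and Arr1 (0.222 and 8.76) showed the same arrangement, with the untreated 16 h library alone raised. The head list summed to 91.5 with uracil and 152 without at 16 h, and to 80.9 and 80.5 at 2 h. Of its 22 matched genes 4 passed the filter, of which 1, ninaE, was lower and 3 were not members. The rhodopsin gene Rh4 and the eye genes inaC and ninaC were at 0 in the uracil 16 h library. That library held 8841796 reads in genes, against 16588143 in the untreated one, so a 0 is easier to reach in it. CG15263 was at 5.10 with uracil and 50.6 without at 16 h, and at 1.89 and 1.39 at 2 h. The adenylyl cyclase gene rut was at 55.7 with uracil and 214 without at 16 h, and at 29.9 and 32.3 at 2 h. For ninaE, CG15263 and rut the untreated 16 h library stood above the other 3.

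In CG15199 the arrangement differed, at 34.8 with uracil and 181 without at 16 h and at 167 and 209 at 2 h, so that the uracil 16 h library alone was low. The coactivator gene nej was at 44.2 with uracil and 132 without at 16 h, and at 111 and 78.8 at 2 h, with the uracil 16 h library the lowest and the untreated 16 h library the highest of the 4. Because the rule picks lower genes for a high untreated 16 h value and a low uracil 16 h value, the rank of these libraries in them is in part fixed by the choice. The same holds, in the opposite direction, for the higher genes given above.

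The lists of ribosome biogenesis genes and mitochondrial ribosomal proteins were added after values were seen, so they support no result of their own. Both lay mostly below 0 with few genes reaching 2-fold. The median of all genes was -0.08, and 0.914% of all genes were lower. In a list of 48 ribosome biogenesis and nucleolar genes, 4 were lower and 0 higher, with a median of -0.63 and 2 of 48 above 0. The 4 were the fibrillarin gene Fib (101 normalized counts with uracil, 220 without), Surf6 (24.95 and 58.6), Nop10 (8.21 and 23.4) and Pus7 (15.9 and 34.7). The summed level was 4991 in the uracil 16 h library, against 7023 in the untreated 16 h library, and 4319 with uracil and 4834 without at 2 h. Mitochondrial ribosomal proteins had a median of -0.52 with 1 of 66 above 0, and 1 lower member, mRpL27 (10.98 and 23.2). Their sum was 1846 in the uracil 16 h library, against 2672 in the untreated one, and 2053 with uracil and 1845 without at 2 h. The growth regulator Myc, a driver of ribosome synthesis, was at 170 with uracil and 364 without at 16 h, and at 163 and 197 at 2 h. In each of these sums and in Myc the untreated 16 h library was the highest of the 4. With the mean of both untreated libraries the list medians were -0.37 and -0.32. Cytosolic ribosomal proteins, in contrast, had a median of -0.01 and no member among 76.

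Tricarboxylic acid cycle genes lay below the median of all genes. The 19 tricarboxylic acid cycle genes past the filter had a median of -0.39 with 2 above 0, and the 1 lower member, Idh3a, stood at 253 normalized counts with uracil and 513 without at 16 h. The citrate transporter gene Indy was at 310 with uracil and 638 without. The mitochondrial RNA polymerase gene PolrMT (74.0 and 168), the cytochrome c heme lyase gene Cchl (59.3 and 139) and the copper chaperone gene Cox17 (16.1 and 40.8), chosen after their values were seen, were lower too. Respiratory chain genes held no member among 59, with a median of -0.21, against -0.08 for all genes. Glycolysis and sugar metabolism lay on the other side, with 3 of 23 higher, 0 lower and a median of 0.13.

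Of 12 clock genes past the filter, 2 were lower and 0 higher. The gene per was at 16.3 normalized counts in the uracil 16 h library, against 48.4 in the untreated one, and at 46.2 with uracil and 25.997 without at 2 h. Its partner tim was at 597 with uracil and 1246 without at 16 h, and at 649 and 485 at 2 h. Both encode proteins of the same repressor complex, and both were lower with uracil at 16 h and above the untreated level at 2 h. The hours of dissection are not stated, so a difference in time of day between libraries was not tested. The other stress members on the lower side were the mitochondrial small heat shock gene Hsp22 (4.99 with uracil, 22.0 without) and the Turandot gene TotM (14.1 and 45.1).

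The 2 h pair, which shares no library with the 16 h pair, held fewer genes 2-fold apart, which limits how many could be shared. At 2 h 39 genes (0.605%) were higher and 57 (0.884%) lower of 6448 past the same filter. Higher at both times were 18 genes, 4.55% of the 396 higher at 16 h and 46.2% of the 39 higher at 2 h. The shares over all genes were 0.605% higher at 2 h and 5.93% higher at 16 h. Higher at 16 h and lower at 2 h were 47 genes, 11.9% of the 396 and 82.5% of the 57, against 0.884% and 5.93% over all genes. Lower at 16 h and higher at 2 h were TotM and Cyp6a17, and 0 genes were lower at both times. With 61 lower genes at 16 h and 0.884% of all genes lower at 2 h, an overlap of this kind can hold none.

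The 18 genes higher at both times were CG16826, whe, lcs, yl, osk, dhd, CycA, CycB, Cht8, LysX, Npc1b, sls, superdeath, CG8299, CG11162, CG14205, CG7720 and FBgn0259680. They included the oocyte genes and a muscle gene given above. The 47 genes included the mannosidases LManIII, LManV and LManVI, the proteases Jon65Ai, Jon65Aii, Jon66Ci and iotaTry, the tubule markers Uro, NaPi-T and Oatp58Dc, and cad. CG12057 stood at 1088 normalized counts with uracil and 232 without at 16 h, and at 1.18 and 211 at 2 h. CG18585 was at 301 with uracil and 51.9 without at 16 h, and at 0.827 and 24.3 at 2 h. In all, 247 of the 396 higher genes (62.4%) had a log2 ratio below 0 at 2 h, against 49.5% of all genes.

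**Figure D4:**
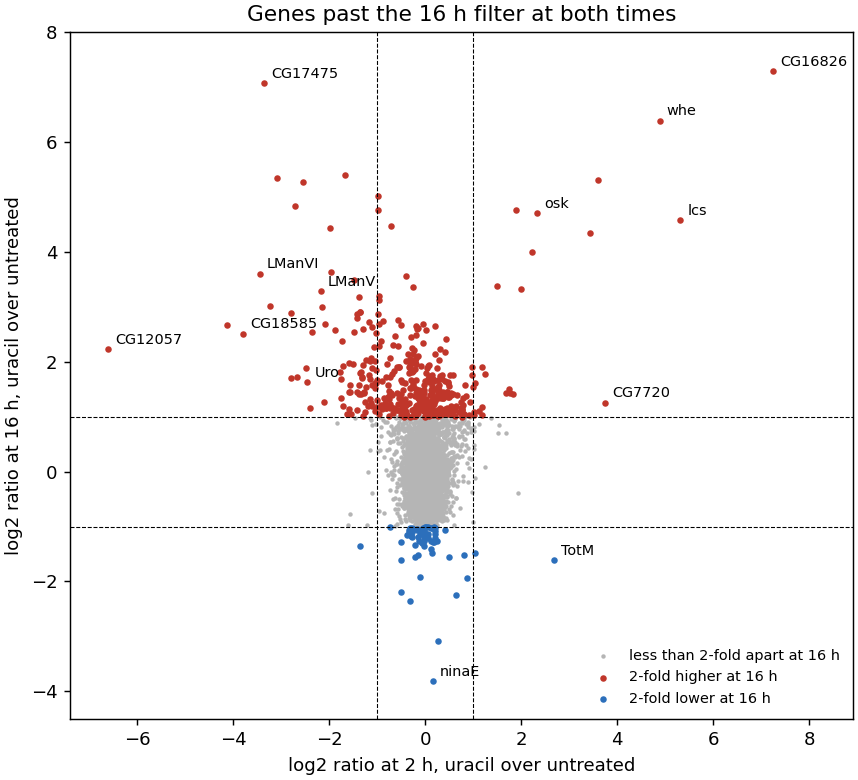
Log2 ratio of uracil over untreated at 16 h (vertical) against that at 2 h (horizontal) for the 6675 genes past the 16 h filter. The 18 genes at the upper right include CG16826, whe and lcs, and the 47 at the upper left include LManVI, LManV and CG12057.

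Members were unevenly spread over the chromosomes. Chromosome 4, the small and largely heterochromatic dot chromosome, had 55 genes past the filter, of which 11 (20%) were higher and 0 lower. Its median log2 ratio was 0.54, against -0.08 over all genes, and 49 of its 55 genes lay above 0. Besides bt, the members included the kinase gene CaMKI (139 normalized counts with uracil, 52.9 without), the synaptic gene unc-13 (135 and 60.4), the zyxin gene Zyx (122 and 57.8) and the TGF-beta family ligand gene mav (28.5 and 9.11). At 2 h the median of the same 55 genes was -0.13, with 10 above 0. The median log2 ratio of uracil 16 h over uracil 2 h was 0.50 for chromosome 4, and that of untreated 16 h over untreated 2 h was -0.09. The uracil 16 h library was thus the one in which chromosome 4 genes stood apart. On the X chromosome 46 of 1074 genes were higher (4.28%) and 17 lower (1.58%), against 5.93% and 0.914% of all genes, with a median of -0.14.

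**Figure D5:**
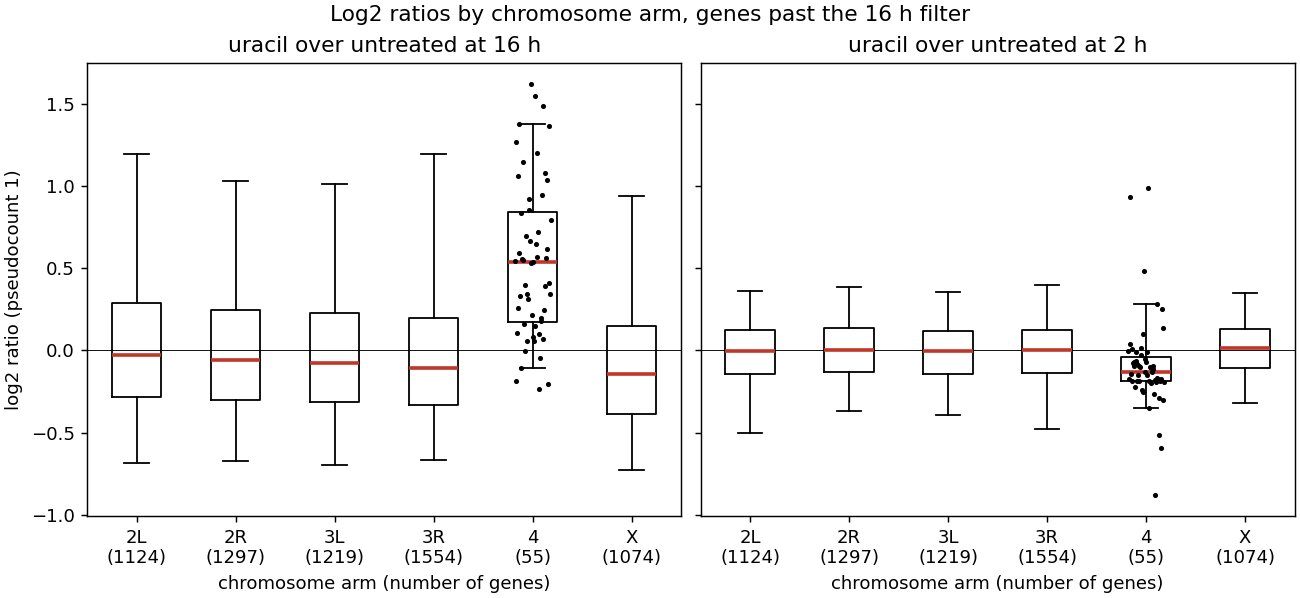
Log2 ratios of uracil over untreated by chromosome arm at 16 h (left) and 2 h (right), for genes past the 16 h filter. Boxes give quartiles with the median in red, whiskers the 5th and 95th percentiles, and dots the 55 genes of chromosome 4, whose median is 0.54 at 16 h and -0.13 at 2 h.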

How the data were processed

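The authors deposited a normalized signal for each gene and library. The submitters' processing notes name TopHat2 2.0.5, Bowtie, cutadapt 1.0, edgeR and HTSeq, with no settings; no genome build or strand setting is given in the sources used here. Whole reads were recovered from the steps in each column (100% of 54584 values within 0.01 reads), but with 1 library per group no residual degrees of freedom remain, so no count test could be run on these reads and no gene is called by one. Lines sharing an ID (118 lines, 57 IDs) were summed. A pseudocount of 1, a minimum mean of 10 and a log2 threshold of 1 gave the members. This size rule and the intervals were checked on simulated counts that held counting error only, with planted changes larger than the threshold. That check cannot show how the rule performs on single libraries that differ in other ways. A floor of 3 reads was worth 0.333 normalized counts in the uracil 16 h library and 0.175 in the untreated one.

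Symbols were matched by ID for 12888 of 13585 IDs; 20 members (13 higher, 7 lower) had none. Of 84 IDs that share all 4 counts with another ID, none is named and none is in a list. Positions come from Ensembl release 115 (BDGP6.54), and 30.8% of higher and 29.5% of lower members overlap another coding gene, against 40.9% of all genes past the filter.

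Genes were named as the 15 highest and 15 lowest ratios, up to 4 members per list, the 8 most abundant members in each direction, runs of neighbours, and the 3 genes on each side of a threshold; other genes, such as Ser8, CG12057, CG18585 and those of chromosome 4, were picked after their values were seen. Members and lists were chosen with earlier results of these data known; 69 lists, some corrected after members were seen, and 7 added after values were seen (serine proteases by synonym, alkaline phosphatases, tetraspanins, tanning, ribosome biogenesis, mitochondrial ribosomal proteins, Myc) support no result. Lists held 146 members and 311 were in none. Promoter and protein features were not analysed here. Python 3.11.15, numpy 2.4.6, pandas 2.3.3 and scipy 1.17.1 were used.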

Additional observations from a re-analysis of the deposited data

Results flagged for a closer look

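The following values stood on opposite sides at 16 h and at 2 h; each rests on 1 library per group, and the difference between times was not tested. At least 2-fold higher at 16 h and at least 2-fold lower at 2 h were 47 genes, and 2 genes were at least 2-fold lower at 16 h and at least 2-fold higher at 2 h. The median log2 ratio of chromosome 4 genes was 0.54 (0.536) at 16 h and -0.13 (-0.129) at 2 h. CG12057 had log2 ratios of 2.23 at 16 h and -6.60 at 2 h, LManVI of 3.60 and -3.44, and CG18585 of 2.51 and -3.79. CG11912 had 2.90 and -2.80, LManV 3.29 and -2.18, and Jon66Ci 2.68 and -2.09 at the same times.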

How the results depend on the processing

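The count of 396 higher genes was 263 with a pseudocount of 10, 688 with a mean of at least 1, 181 with a mean of at least 50, 711 with no filter and 88 with a threshold of 2 on the log2 scale. The count of 61 lower genes was 29, 31, 95 and 5 with a pseudocount of 10, a mean of at least 50, no filter and a threshold of 2, and 36 where the counting interval lay wholly beyond 2-fold. The share of higher genes among members, 86.7%, was 90.1% with a pseudocount of 10, 94.6% with a threshold of 2, 89.7% by the interval and 90.7% with the mean of both untreated libraries, an alternative chosen after seeing the data; it was 85.8% with the column total, 83.96% with the median of ratios and 85.4% with a mean of at least 50. That alternative gave 438 higher genes, 334 of them among the 396, and 45 lower genes, 19 of them among the 61. It moved 113 of 172 named genes past their counting interval, turned 1 more, PGRP-SC2, to -0.20, and moved 14 of 68 list medians; a pseudocount of 10 moved 129 named genes. With the mean of both untreated libraries 53 of 68 list medians kept their sign; among the others were Jonah proteases (-0.20), enterocyte markers (-0.21) and glutathione S-transferases (-0.05). Scaling by the column total gave 392 and 65, and by the median of ratios 377 and 72. Where counts moved, the cause was not tested beyond the number of genes each filter admits. No paired analysis was possible because each group had 1 library and no replicate number, and for the same reason no replicate could be left out. Counting error is widest for low genes. At 10 to 30 normalized counts 7.74% of 1874 genes passed the rule on the higher side, 4.40% of 1567 at 100 to 300, and 8.59% of 128 at 1000 and above.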

Other observations

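Further gene groups of the 16 h pair were mixed, beside shares of 5.93% higher and 0.914% lower among all genes past the filter. Of 13 amino acid breakdown genes past the filter 4 were higher and 0 lower (median 0.17), among them slgA, a proline dehydrogenase gene, at 16.7 normalized counts with uracil and 5.90 without, and P5CDh1, which acts at the next step, at 29.3 and 13.2. Glycolysis and sugar metabolism members included the trehalose synthase gene Tps1 (198 with uracil, 87.7 without) and Pepck2 (46.1 and 12.5). Sodium, potassium and water channels had 4 of 19 higher and 1 lower (median 0.21), with the aquaporin gene Prip at 80.7 with uracil and 35.8 without. Tetraspanins, membrane scaffold proteins, had 3 of 19 higher and 0 lower (median 0.36), and the Myc and growth regulator list had 1 of 4 lower, Myc itself (median -0.52). The tetraspanin and Myc lists were added after values were seen, so their shares support no result.

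Lipid genes were likewise spread on both sides of 0. Lipogenesis and elongase genes had 2 of 11 higher and 0 lower (median 0.22), with the elongase gene bond at 59.8 normalized counts with uracil and 18.2 without, and the desaturase gene Fad2 at 21.8 and 4.15. Lipolysis and lipid droplet genes had 1 of 20 higher (5%, near the 5.93% of all genes) and a median of 0.08. The member was the perilipin gene Lsd-1 (34.05 with uracil, 8.94 without). Acid region markers had 1 of 6 lower, the carbonic anhydrase gene CAH1 (22.96 with uracil, 49.0 without), 0 of 6 above 0 and a median of -0.47.

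Markers of blood cells and fat body held 1 member each, 16.7% and 14.3% of their genes past the filter, against 5.93% higher among all genes. Hemocyte markers had 1 of 6 higher, the GATA factor gene srp (64.8 normalized counts with uracil, 31.5 without), and their summed level was 381 with uracil and 315 without at 16 h, and 340 and 330 at 2 h. Fat body markers had 1 of 7 higher, the larval serum protein gene Lsp1gamma (31.8 with uracil, 4.44 without), and summed to 1292 with uracil and 1549 without at 16 h, and to 1546 and 1692 at 2 h. Of 15 matched male reproductive markers 1 passed the filter, bol, at 26.8 with uracil and 50.001 without, and 10 were at 0 in the uracil 16 h library and 8 in the untreated one.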
